A study of Mus musculus with 56 samples.

Results

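The 7 transcripts described here encode the neuropeptides of the suprachiasmatic nucleus (SCN) and receptors for 2 of them. They were chosen by name: the peptides Avp (arginine vasopressin), Vip (vasoactive intestinal peptide), Prok2 (prokineticin 2), Nms (neuromedin S) and Grp (gastrin-releasing peptide), and the receptors Vipr2 (the VIP receptor VPAC2) and Avpr1a (the vasopressin receptor V1a). All 7 were present among the 17564 genes of the table, and all 7 passed the filter on low values that left 16245 genes. The RNA came from the anterior hypothalamus of 56 female C57BL/6J mice aged 9 weeks, a dissection that holds the SCN together with the paraventricular and supraoptic nuclei. All mice lived in a cycle of 12 h of light and 12 h of darkness and ate normal chow. In the day time-restricted feeding group (DRF) food was offered in the light period and in the night time-restricted feeding group (NRF) in the dark period, for 7 days in both. Each regimen held 28 mice, 4 at every 4 h from ZT0 to ZT24 (zeitgeber time, hours after lights on), and each mouse was sampled once. No group had free access to food, so each regimen could be compared only with the other.

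The SCN is the central clock of mammals. Its ventral core receives the retinal input and holds the VIP and GRP neurons, and its dorsal shell holds the vasopressin neurons. VIP acts through VPAC2 and keeps the cells of the SCN in step with each other. Prokineticin 2 is a secreted output signal of the SCN, and neuromedin S is made by cells of both core and shell. Transcription of Avp and Prok2 in the SCN is known to be driven in the day by CLOCK and BMAL1 through E-boxes, and the Vip promoter is known to respond to cyclic AMP. Vasopressin is also made in large amounts by the paraventricular and supraoptic nuclei, next to oxytocin neurons.

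Sequence upstream of the start was taken from RefSeq windows on GRCm38.p6 for 6 of the 7 genes. The windows are shown for the genes in which 1 of the motifs CACGTG (the canonical E-box), CACGTT (a variant E-box) or TGACG (the core of the cyclic AMP response element TGACGTCA, which contains it) was found and which encode a peptide. Both strands were searched in the 250 bases before the start used for the window, and the matches are printed in capitals. The stretches are chr2:130582589-130582838 on the minus strand for Avp, chr6:99726393-99726642 on the minus strand for Prok2 and chr10:5638968-5639192 on the plus strand for Vip, the last cut to 225 bases so that it ends before the first annotated base of the gene.
Avp: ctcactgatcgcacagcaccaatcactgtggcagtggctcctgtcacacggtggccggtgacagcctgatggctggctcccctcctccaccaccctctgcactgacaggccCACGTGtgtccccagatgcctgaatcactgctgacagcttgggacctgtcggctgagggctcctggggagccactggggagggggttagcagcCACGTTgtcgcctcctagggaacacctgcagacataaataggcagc
Prok2: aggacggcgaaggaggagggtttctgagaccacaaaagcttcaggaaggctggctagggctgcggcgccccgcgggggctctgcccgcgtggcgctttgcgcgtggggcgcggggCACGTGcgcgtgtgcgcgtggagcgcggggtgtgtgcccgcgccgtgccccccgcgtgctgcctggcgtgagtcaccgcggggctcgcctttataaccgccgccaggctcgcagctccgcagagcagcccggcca
Vip: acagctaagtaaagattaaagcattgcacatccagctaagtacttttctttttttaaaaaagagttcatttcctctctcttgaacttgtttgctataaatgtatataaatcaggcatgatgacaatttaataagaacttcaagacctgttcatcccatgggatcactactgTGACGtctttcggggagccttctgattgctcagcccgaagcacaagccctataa

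The E-box CACGTG lay 139 to 134 bases before the start of Avp and 135 to 130 bases before the start of Prok2. Of 32851 RefSeq windows of the same length, 6.02% held it. Avp held CACGTT as well, at 46 to 41 bases, a motif found in 3.85% of the windows. TGACG stood 79 to 75 bases before the end of the 250-base window of Vip, which runs past the printed 225 bases into the annotated gene. It stood 165 to 161 bases before the end of the window of Avpr1a, and 17.8% of the windows held it. The full element TGACGTCA (1.55% of the windows) and the D-boxes TTATGTAA (0.819%) and TTACGTAA (0.113%) were in none of the 6 windows. The windows of Nms and Vipr2 held none of these motifs. By their RefSeq spans on GRCm38.p6, Nms lies at chr1:38939149-38950276, Vipr2 at chr12:116077420-116148637 and Avpr1a at chr10:122448499-122453453, and the bodies of Avp, Prok2 and Vip lie at chr2:130580620-130582588, chr6:99711299-99726392 and chr10:5639193-5647617.

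The deposited values could be turned back into whole reads and into CPM (reads scaled by library size) for all 7 transcripts in every mouse. The normalized library size was 29591272 to 34493344 reads per mouse. Mice of the same group correlated at 0.988 to 0.999 across genes, with a median of 0.998 over 84 pairs. The libraries of DRF ZT16 replicates 4 and 3 stood furthest from the others, with a median correlation of 0.9883 and 0.9919 with all libraries. SCN markers were present in all mice: Six6, a transcription factor of the SCN, ranged from 5.799 to 22.57 CPM, and Lhx1 from 4.734 to 11.64. So were markers of neighbouring tissue. Oxt, the oxytocin gene of the paraventricular and supraoptic nuclei, ranged from 158.9 to 376.8 CPM, Agrp of the arcuate nucleus from 0.3325 to 12.34 and the thalamic marker Prkcd from 10.52 to 133.4. Of 4 pituitary hormone transcripts, Prl and Gh were at 0 in 41 and 38 mice, whereas Tshb (8.469 to 13.49 CPM) and Lhb (0.5326 to 2.479) were at 0 in none. In such bulk RNA fewer cells of a type and less RNA per cell cannot be told apart.

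Avp was by far the most abundant of the peptide transcripts and Prok2, Nms and Grp were scarce. The lowest, median and highest number of reads over the 56 mice were 1929, 5224.5 and 10472 for Avp and 206, 429.5 and 803 for Vip. They were 44, 86 and 146 for Prok2, 46, 80.5 and 152 for Nms, and 56, 114.5 and 192 for Grp. The receptors had 126, 239 and 405 reads for Vipr2 and 164, 221.5 and 303 for Avpr1a. None of the 7 was at 0 in any mouse. At the median number of reads, counting error alone gives a coefficient of variation of 10.8% for Prok2, 11.1% for Nms and 9.35% for Grp, against 1.38% for Avp and 4.83% for Vip.

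On a scale per length, in CPM per kilobase of exon, the median level over all mice was 294 for Avp, 4.0 for Vip, 3.50 for Grp, 2.68 for Avpr1a, 2.59 for Nms, 1.73 for Vipr2 and 1.47 for Prok2. In this order the ranges over mice of 5 of the 6 neighbours overlapped, and only that of Avp lay apart from the next. The exon that encodes neurophysin is closely similar in Avp and Oxt, and RSEM, with which the authors counted, divides reads shared between genes by an estimate. How this touched Avp and Oxt was not tested.

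Plotted through the day, Prok2 was high in the early light period in both regimens, Vipr2 was high in the dark and, in DRF, also at ZT0, and the Vip transcript of NRF mice stood out at ZT8. Prok2 averaged 3.97 ± 0.429 CPM at ZT0, 4.01 ± 0.325 at ZT4 and 2.22 ± 0.363 at ZT20 in NRF (SD, n = 4 each). In DRF it averaged 3.46 ± 0.210 at ZT0, 3.84 ± 0.211 at ZT4 and 1.86 ± 0.332 at ZT16. At ZT12 the 4 DRF mice had 1.80, 1.93, 4.20 and 4.56 CPM, a pair near the night mean and a pair above the ZT4 mean of 3.84, whereas the NRF mice had 1.99 to 2.40. Vipr2 averaged 9.10 ± 1.16 CPM at ZT16 and 10.2 ± 1.59 at ZT20 in NRF. In DRF it averaged 9.38 ± 3.05 at ZT0, 9.36 ± 0.210 at ZT16 and 9.08 ± 2.08 at ZT20, and 7.86 ± 0.874 at ZT24.

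**Figure D1:**
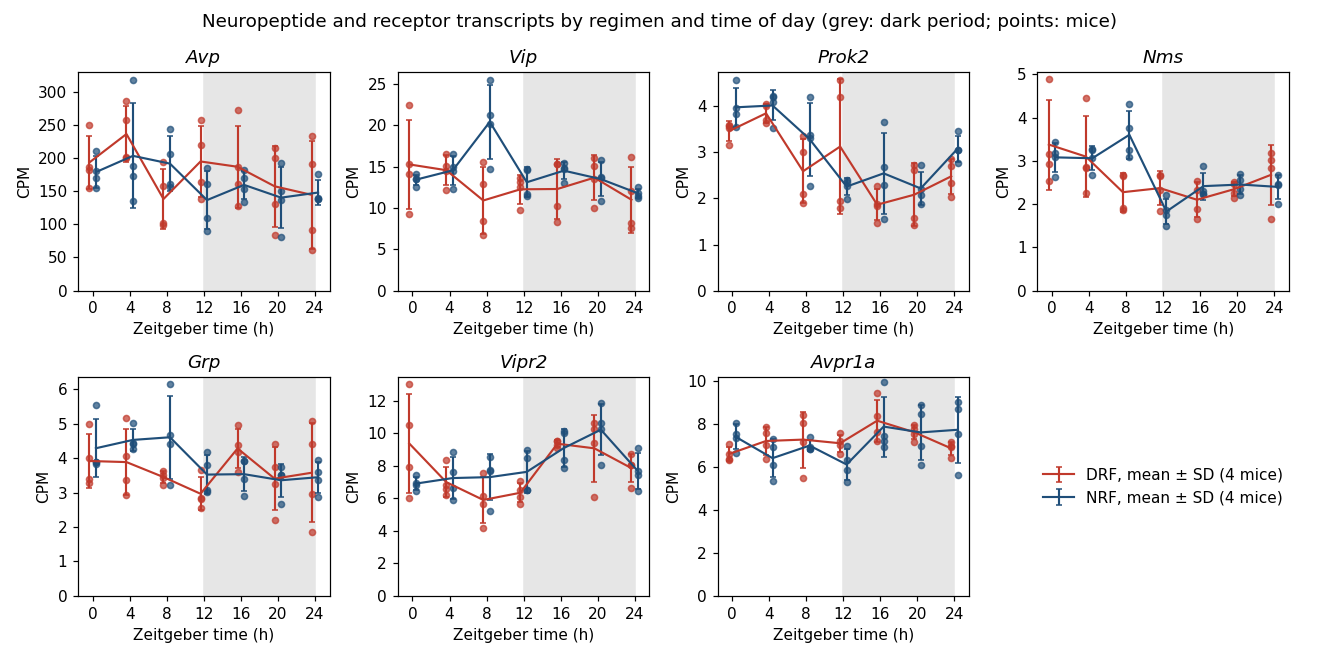
CPM (linear axis from 0) of each of the 7 transcripts against zeitgeber time in hours; points are mice, lines join group means and bars are the SD of 4 mice, red for DRF and blue for NRF, with the dark period in grey. Prok2 is highest at ZT0 and ZT4 in both regimens, Vipr2 is high at ZT16 and ZT20 in both and at ZT0 in DRF (mean 9.38 CPM), and Vip in NRF averages 20.4 CPM at ZT8.

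The first comparison asked whether the transcripts differed between day (ZT4 and ZT8) and night (ZT16 and ZT20) within each regimen. In NRF, 3 peptide transcripts were higher in the light (Prok2, Nms and Grp) and the receptor transcript Vipr2 was lower, 4 of the 7 in all. In DRF, Prok2 was higher and Vipr2 lower in the light, 2 of the 7. The test was limma on log2(CPM + 1) with p-values adjusted over 16018 genes. By the same rule 26.7% of all genes tested passed in NRF (13.6% higher and 13.1% lower in the light) and 3.4% in DRF (1.29% higher and 2.11% lower). The median difference over the 7 transcripts was 0.318 in NRF and -0.042 in DRF on this log2 scale, and over all genes it was 0.001 and 0.009.

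Prok2, the secreted output signal, was the transcript with the largest difference in NRF. Its lowest, median and highest values there were 2.27, 3.81 and 4.22 CPM in 8 mice in the light and 1.56, 2.24 and 3.65 CPM in 8 mice in the dark. All 8 light mice were above the dark median, and 4 of them were above every dark mouse. The mean was 1.53-fold higher in the light, with a difference of 0.47 ± 0.12 on the log2(CPM + 1) scale (SE, adjusted p = 0.00226). In DRF the values were 1.90, 3.49 and 4.04 CPM in the light and 1.41, 1.85 and 2.72 in the dark. Here 6 of the 8 light mice were above every dark mouse. The mean was 1.63-fold higher and the difference 0.50 ± 0.12 (adjusted p = 0.00677).

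Vipr2, the receptor of VIP, went the other way in both regimens. In NRF the lowest, median and highest values were 5.24, 7.66 and 8.83 CPM in the light and 7.89, 10.1 and 11.9 in the dark, so that 6 of the 8 light mice were below every dark mouse. The dark mean was 1.33-fold the light mean, and the light minus dark difference was -0.37 ± 0.11 (adjusted p = 0.0111). In DRF they were 4.20, 6.41 and 8.34 CPM in the light and 6.06, 9.46 and 10.6 in the dark. In this regimen 7 of the 8 dark mice were above every light mouse, the exception being DRF ZT20 replicate 2. The dark mean was 1.43-fold higher than the light mean, with a difference of -0.46 ± 0.11 (adjusted p = 0.00885).

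Nms and Grp passed in NRF alone. For Nms, the neuromedin shared by core and shell, the NRF values were 2.67, 3.25 and 4.32 CPM in the light and 2.20, 2.34 and 2.88 in the dark, and 7 of the 8 light mice lay above every dark mouse. The difference was 0.33 ± 0.09 in NRF (adjusted p = 0.00741), a mean 1.37-fold higher. In DRF it was 0.17 ± 0.09 (adjusted p = 0.331), with 5 of 8 light mice above every dark mouse. For Grp, a peptide of the retinorecipient core, the NRF values were 3.22, 4.42 and 6.14 CPM in the light and 2.66, 3.52 and 3.92 in the dark. All but 1 of the NRF light mice lay above every dark mouse, and the difference was 0.32 ± 0.11 (adjusted p = 0.0337). In DRF the Grp difference was -0.04 ± 0.11 (adjusted p = 0.886). The Grp call in NRF was lost (adjusted p = 0.0507 to 0.102) without NRF ZT8 replicate 4 or 3, NRF ZT20 replicate 3, NRF ZT16 replicate 3 or NRF ZT4 replicate 3.

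The other peptides and the vasopressin receptor did not pass in either regimen. Avp differed by 0.39 ± 0.22 in NRF (adjusted p = 0.185) and by 0.11 ± 0.22 in DRF (adjusted p = 0.841). Vip differed by 0.27 ± 0.14 in NRF (adjusted p = 0.152) and by -0.04 ± 0.14 in DRF (adjusted p = 0.915). The intervals were wide, and for Avp in NRF the 95% interval ran from -0.05 to 0.82. Avpr1a differed by -0.18 ± 0.08 in NRF (adjusted p = 0.0828) and by -0.11 ± 0.08 in DRF (adjusted p = 0.46). With array weights Vip (0.30, adjusted p = 0.0479) and Avpr1a (-0.17, adjusted p = 0.0437) passed in NRF, and Avpr1a also passed there without NRF ZT20 replicate 3 (-0.22, adjusted p = 0.0332).

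**Figure D2:**
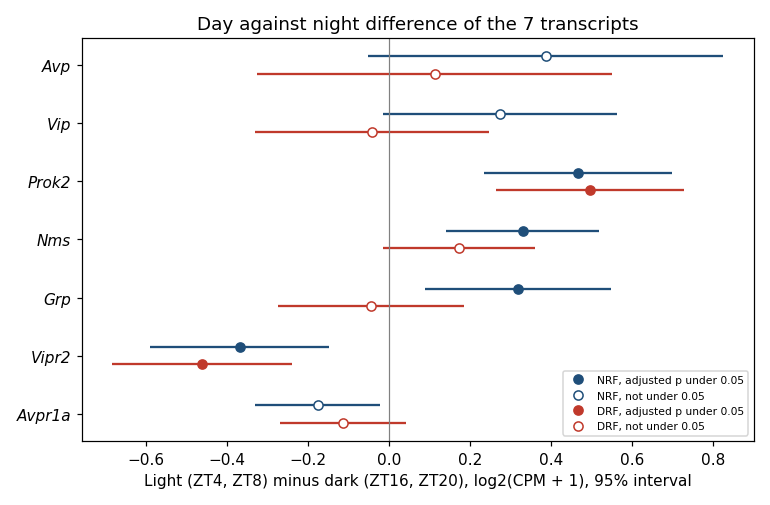
Light (ZT4 and ZT8) minus dark (ZT16 and ZT20) difference of each transcript on the log2(CPM + 1) scale, NRF in blue and DRF in red, with 95% intervals from limma; filled points have an adjusted p under 0.05. Prok2 is above 0 and Vipr2 below 0 in both regimens, while Nms and Grp pass in NRF alone.

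A call in 1 regimen is no test of a difference between regimens, so the light minus dark difference was itself compared. It differed for 0 of the 7 transcripts by limma (10.4% of all genes passed), with 1 at an unadjusted p under 0.05. This was Grp, at -0.36 ± 0.16 for DRF minus NRF (adjusted p = 0.127). For Prok2 the difference between regimens was 0.03, with a 95% interval from -0.30 to 0.36, and for Vipr2 it was -0.09, from -0.41 to 0.22. For Nms it was -0.16, from -0.42 to 0.11.

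These day and night calls had limits. Without ZT16, the time of the libraries that stood apart, Prok2 in DRF was 0.45 (adjusted p = 0.0606), Vipr2 in DRF -0.43 (adjusted p = 0.0927) and Grp in NRF 0.35 (adjusted p = 0.0666), whereas without those 2 libraries Prok2 in DRF was 0.44 (adjusted p = 0.0456) and Vipr2 in DRF -0.46 (adjusted p = 0.0272). Of the 44 region and cell type markers tested, 8 passed between light and dark in NRF, where 26.7% of all genes did. In DRF 2 of the 44 passed, against 3.4% of all genes. The summed thalamic markers had a median of 116.6 CPM in the light and 180.8 in the dark in NRF, and 145.8 and 115.9 in DRF, with Tcf7l2 lower in the light in NRF (-0.90 ± 0.27, adjusted p = 0.0111) as 1 of 3 thalamic markers called. Of the 6 paraventricular and supraoptic markers, Pdyn and Trh were higher in the light in NRF (0.33, adjusted p = 0.022, and 0.31, adjusted p = 0.031), and the list summed to a median of 613 CPM in the light and 513.1 in the dark. Of the 8 SCN markers, Rorb and Zfhx3 were lower in the light in NRF (-0.25, adjusted p = 0.0233, and -0.27, adjusted p = 0.000609), and Lhx1 was lower in DRF (-0.31, adjusted p = 0.0197). Of the 6 oligodendrocyte markers, Cnp and Mag were higher in the light in NRF (0.25, adjusted p = 0.00859, and 0.26, adjusted p = 0.0293), while the list summed to a median of 5852 CPM in the light and 6510 in the dark. Aldh1l1, 1 of 3 astrocyte markers, was higher in the light in NRF (0.13, adjusted p = 0.0253) and lower in DRF (-0.26, adjusted p = 0.000222). The part of these markers in the day and night results was not tested.

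Rhythm over the full day was then tested with a rewritten form of the JTK_CYCLE and Lomb-Scargle tests of MetaCycle, the program the study names, combined over periods of 20 to 28 h on the deposited values. The tests and periods set in the study were not given in the sources used here, so the calls need not be those of its own run. Prok2 was rhythmic in NRF (adjusted p = 0.000241), 1 of the 7 transcripts, where 27.6% of all genes passed, though not without replicate 1 (adjusted p = 0.086). The best JTK_CYCLE period of Prok2 in NRF was 28 h, the longest searched. Vipr2 (adjusted p = 0.0587) and Grp (adjusted p = 0.083) came next and did not pass. In DRF 0 of the 7 passed, where 0.813% of all genes did. There 2 had an unadjusted p under 0.05, Prok2 (adjusted p = 0.164) and Vipr2 (adjusted p = 0.312). The limma test of a 24-h cosine on log2(CPM + 1) called more: Prok2, Nms and Vipr2 in NRF (adjusted p = 0.00157, 0.0227 and 0.0283), where 27.9% of all genes passed, and Prok2 and Vipr2 in DRF (adjusted p = 0.025 and 0.00495), where 4.03% did. A limma test of any difference among the 7 time points called Prok2 and Nms in NRF (adjusted p = 0.00228 and 0.0012; 29.9% of all genes passed) and Prok2, Nms and Vipr2 in DRF (adjusted p = 0.00182, 0.0269 and 0.00629; 32.8% passed).

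Peak times of the fitted cosine lay on opposite sides of the day for the prokineticin and the VIP receptor transcript. Prok2 peaked at a zeitgeber time of 3.7 ± 0.677 h in NRF and 4.77 ± 0.996 h in DRF (SE over 28 mice each), and its amplitude was 0.33 ± 0.06 and 0.30 ± 0.09 on the log2(CPM + 1) scale. Vipr2 peaked at 17.6 ± 0.944 h in NRF and 19.9 ± 0.822 h in DRF, with an amplitude of 0.21 ± 0.06 and 0.30 ± 0.07. The peak in DRF came 1.07 ± 1.2 h later than in NRF for Prok2 and 2.33 ± 1.25 h later for Vipr2. Nms peaked at 4.31 ± 0.981 h in NRF and 2.18 ± 1.38 h in DRF. For Vip, Grp and Avp in DRF the amplitude was within 1 SE of 0 and the peak time was not determined (SE of 4.78, 6.01 and 7.75 h). The cosine terms differed between the regimens for 0 of the 7 by limma (11.1% of all genes passed), and 0 of the 7 had an unadjusted p under 0.05. The smallest adjusted p was 0.2, for Vip.

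The regimens were next compared at each time point. Of 49 comparisons (7 transcripts at 7 times) 1 passed, Vip at ZT8, 4 h before lights off. There 0.144% of all genes passed, and 0.0999% were lower in DRF, while the share was 4.56% at ZT0, 3.91% at ZT4, 1.5% at ZT12, 20.2% at ZT16, 1.12% at ZT20 and 0.325% at ZT24. The share at ZT16 rested on the 2 DRF libraries that stood apart: 3232 of 16018 genes passed with them and 31 without them. The 4 DRF mice had 6.67, 8.46, 12.9 and 15.6 CPM of Vip at ZT8, and the 4 NRF mice had 14.7, 20.2, 21.2 and 25.5 CPM. The groups overlapped by 1 mouse on each side. The mean was 10.9 ± 4.07 CPM in DRF and 20.4 ± 4.43 in NRF (SD, n = 4), 1.87-fold higher in NRF, and the difference was -0.89 ± 0.20 on the log2(CPM + 1) scale (adjusted p = 0.049). The NRF mean at ZT8 was the highest of the 14 groups for Vip, and at the other times in NRF it ran from 11.8 to 14.5 CPM.

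The Vip call lay at the threshold. It was lost (adjusted p = 0.0503 to 0.206) without 38 of the 56 libraries left out 1 at a time, among them 7 of the 8 ZT8 libraries (all but DRF ZT8 replicate 3), with a difference from -1.07 to -0.70, and the adjusted p was 0.0524 with log2(CPM + 0.25), 0.0528 with no filter on low values, 0.106 with log2(deposited value + 1) and 0.0565 with quantile normalization. Region markers at ZT8 gave 0 of 8 SCN markers called, and their sum was 271 to 327.6 CPM in DRF and 275.3 to 332.3 in NRF. Six6 had the lowest estimate of the 8, at -0.24, with 6.96 to 13.0 CPM in DRF and 8.53 to 18.1 in NRF. Zfhx3 had the highest, at 0.12. Called were also 0 of 6 paraventricular and supraoptic markers, whose sum had a range of 463.8 to 582.7 CPM in DRF and 605.7 to 790 in NRF. The same held for 0 of 3 thalamic markers, summing to 123.5 to 159.7 CPM in DRF and 92.19 to 143.4 in NRF. Over all 10 lists of region and cell type markers, 0 of 44 genes tested passed at ZT8. Kiss1 of the arcuate list came closest, at -0.83 ± 0.20 (adjusted p = 0.057, limma), a difference near that of Vip. In the same list Pomc was at -0.198, and Agrp and Npy were higher in DRF (0.665 and 0.373). Trh, a paraventricular marker, was at -0.44 ± 0.15 (adjusted p = 0.213, limma). The part of these markers in the Vip difference was not tested.

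At ZT8, 6 of the 7 transcripts were lower in DRF, though 5 of these 6 did not pass. The median difference was -0.309 over the 7 and 0.000 over all genes. The 7 were measured in the same mice and dissections, so the 6 are not separate observations. Nms had 1.87, 1.91, 2.64 and 2.68 CPM in the DRF mice and 3.08, 3.26, 3.75 and 4.32 in the NRF mice. This was the 1 comparison of the 49 in which the groups did not overlap, and 5.05% of all genes were lower in DRF at ZT8 with no overlap. The Nms difference was -0.49 ± 0.13 (adjusted p = 0.101). Avp differed by -0.50 ± 0.31 (adjusted p = 0.471), Grp by -0.31 ± 0.16 (adjusted p = 0.397), Vipr2 by -0.27 ± 0.16 (adjusted p = 0.443) and Prok2 by -0.26 ± 0.16 (adjusted p = 0.487). Avpr1a differed by 0.04 ± 0.11 (adjusted p = 0.913). The receptor Vipr2 at ZT0 was the other comparison with an unadjusted p under 0.05, with 6.04, 7.92, 10.5 and 13.0 CPM in DRF and 6.45, 6.82, 6.95 and 7.41 CPM in NRF (adjusted p = 0.224).

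**Figure D3:**
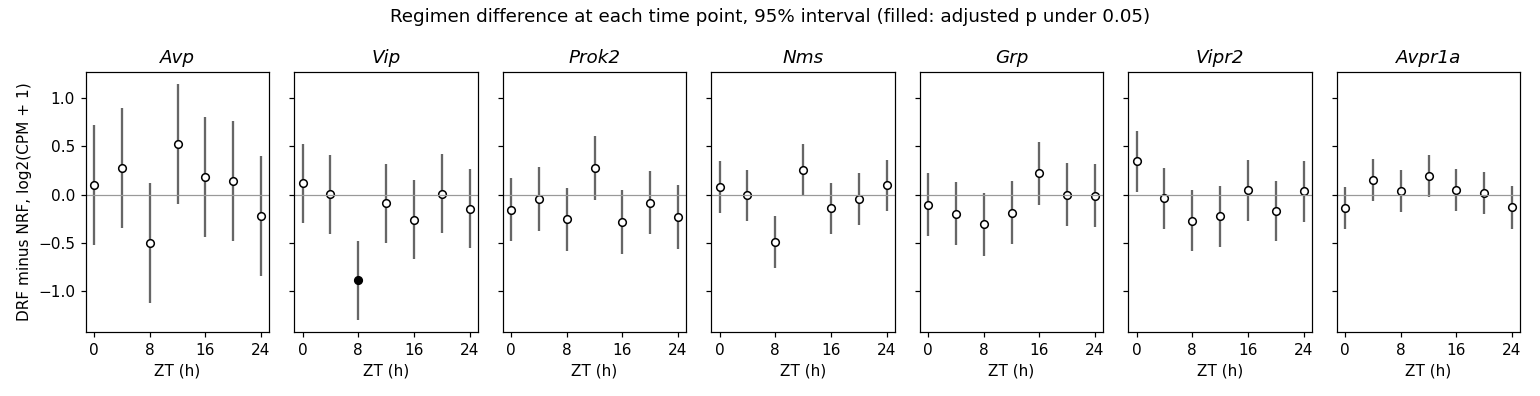
DRF minus NRF difference of each transcript on the log2(CPM + 1) scale at the 7 zeitgeber times, with 95% intervals from limma; the filled point has an adjusted p under 0.05. Vip at ZT8, at -0.89, is the 1 comparison of 49 that passed, and Nms at ZT8 is at -0.49.

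Averaged over the day, 0 of the 7 transcripts differed between the regimens (10.5% of all genes passed), and 1 had an unadjusted p under 0.05. Vip averaged 12.8 CPM in DRF and 14.5 CPM in NRF, a difference of -0.18 ± 0.08 (adjusted p = 0.121). Prok2 differed by -0.11 ± 0.06 (adjusted p = 0.243) and Avpr1a by 0.02 ± 0.04 (adjusted p = 0.764). For Avp the 95% interval was -0.16 to 0.30 and for Vipr2 -0.16 to 0.08. All 4 haemoglobin transcripts tested as blood markers were higher in DRF over the day, by a median of 0.54 on the log2 scale (limma). Their values did not give whole reads, so the size of this difference is approximate. The part of the haemoglobin transcripts in the values above was not tested.

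Mice of 1 group differed from each other more in DRF for 6 of the 7 transcripts. For Vip the SD within groups was 0.383 in DRF and 0.179 in NRF on the log2(CPM + 1) scale, a ratio of 2.14. It was 0.239 and 0.129 for Nms, 0.525 and 0.371 for Avp, and 0.273 and 0.191 for Grp. For Nms in NRF the coefficient of variation within groups, 12.4%, was close to the 11.1% that counting alone gives. Avpr1a was the exception, at 0.125 in DRF and 0.182 in NRF. Over all genes tested the spread was larger in DRF for 79.6%, with a median ratio of 1.27.

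Mice sampled at ZT0 and at ZT24 stood at the same clock time and served as a measure of what other mice alone can give. Of 14 comparisons (7 transcripts in both regimens) 0 passed, where 2.1% of all genes passed in NRF and 0.456% in DRF, and 2 had an unadjusted p under 0.05. These were Prok2 and Vip in DRF, at -0.36 ± 0.16 (adjusted p = 0.273) and -0.44 ± 0.20 (adjusted p = 0.296) for ZT24 minus ZT0. The estimate was below 0 in 11 of the 14. The 7 transcripts were measured in the same mice and dissections, so the 14 are not separate observations. The median difference over the 7 was -0.243 in NRF and -0.246 in DRF, and over all genes it was -0.006 in both.

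Related ligands and receptors were tested from a fixed list of 15 genes, of which 14 were tested and Avpr1b was not analysed here. In NRF 4 of the 14 differed between light and dark, about the share of all genes (26.7%). Prokr2, the prokineticin receptor on target neurons of the SCN, was lower in the light (-0.66 ± 0.11, adjusted p = 2.51e-05), opposite to its ligand Prok2. Nmbr, a bombesin-family receptor, was lower (-0.43 ± 0.12, adjusted p = 0.00834), and its ligand Nmb was higher (0.23 ± 0.06, adjusted p = 0.00581). Adcyap1r1, the PACAP receptor, was higher by 0.10 ± 0.03 (adjusted p = 0.027). In DRF 0 of the 14 passed (3.4% of all genes). The light minus dark difference of Nmb differed between regimens (-0.27 ± 0.09, adjusted p = 0.046), and so did its cosine terms (adjusted p = 0.0166). The rhythm test called Prokr2 (adjusted p = 7.68e-05) and Prok1 (adjusted p = 0.027) in NRF, 2 of the 14 against 27.6% of all genes, and 0 of the 14 in DRF. Between regimens, by limma, Prok1 was higher in DRF at ZT0 (0.37 ± 0.08, adjusted p = 0.00418). Its median was estimated at 9 reads, as its values did not give whole reads. Prok1 was also lower at ZT24 than at ZT0 in DRF (-0.36, adjusted p = 0.036). Adcyap1r1 was higher in DRF over the day (0.06, adjusted p = 0.0242) and at ZT16 (0.15, adjusted p = 0.0257), the time of the 2 libraries that stood apart. Brs3 was lower in DRF over the day (-0.16, adjusted p = 0.0272).

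Among 9 genes of peptide processing, which cut, amidate and store the precursors, 1 differed between light and dark in NRF, the granule protein Chga (0.14 ± 0.05, adjusted p = 0.0253), and 0 did in DRF, where the shares of all genes were 26.7% and 3.4%. Cpe, the carboxypeptidase that trims precursors, was lower in DRF over the day (-0.08 ± 0.02, adjusted p = 0.00751) and at ZT12 (-0.25 ± 0.05, adjusted p = 0.0133). Chgb was higher in DRF at ZT16, the time of the 2 libraries that stood apart (0.20 ± 0.06, adjusted p = 0.0152, limma). None of the 9 passed at ZT8.

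The pattern of each transcript over the 56 mice was compared with that of all genes by Pearson's r of log2(CPM + 1). These points share library, depth and dissection, so the values are a description. Avp went most with Oxt (r = 0.82, and 0.80 after the group means were removed), followed by C1ql2 (0.75), Mrap2, Nrsn2 and Tmem176b (0.72 each). It went against the thalamic markers Tcf7l2 (-0.45) and Prkcd (-0.44). Nms went most with Vax1 (0.75), a homeobox gene of the ventral forebrain, then with Trh (0.68), Shisal2b, Cd24a and Ube2l3. Grp went most with Bub3 (0.78), 6330403K07Rik, Resp18, Pithd1 and Saraf. With the arcuate markers r of Grp was 0.74 for Pomc (0.78 after the group means were removed), 0.50 for Agrp, 0.48 for Npy and 0.33 for Kiss1. With the paraventricular and supraoptic markers it ran from -0.40 for Crh to 0.63 for Otp. Vipr2 went most with Pcsk2 (0.66), the prohormone convertase, then with Tox3, Nell2, Rnf182 and Nt5dc3.

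The likeness was weaker for the other transcripts. Vip went most with Sfxn1 (0.59), Fezf1, Alg2, Insm1 and Arxes1, and Avpr1a with Phtf1 (0.62), Bag2, Ubfd1, Dnajc28 and Ldah. Prok2 went most with Fabp7 (0.55), Sh3bp5, Skor2, Gadl1 and Taf9. For Fabp7 r was -0.14 after the group means were removed, and for Skor2 it stayed at 0.54. Over the 56 mice, the 8 SCN markers did not go one way with the 7 transcripts. For Avp r ran from -0.41 with Syt10 to 0.49 with Gpr176, for Vip from -0.02 with Zfhx3 to 0.50 with Six6, for Nms from -0.19 with Zfhx3 to 0.57 with Six6, and for Grp from -0.28 with Zfhx3 to 0.58 with Gpr176. For Prok2 it ran from -0.36 with Lhx1 to 0.32 with Six3, for Vipr2 from -0.06 with Six3 to 0.47 with Rorb, and for Avpr1a from -0.25 with Rgs16 to 0.28 with Lhx1. After the group means were removed, r ran from 0.07 with Rgs16 to 0.58 with Six6 for Vip. For Vipr2 it then ran from 0.03 with Six3 to 0.61 with Rorb. It still took both signs for Avp, Prok2, Nms, Grp and Avpr1a. Among the 7 themselves the highest r was between Vip and Nms (0.56) and the lowest between Prok2 and Vipr2 (-0.27, and 0.01 within groups).

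**Figure D4:**
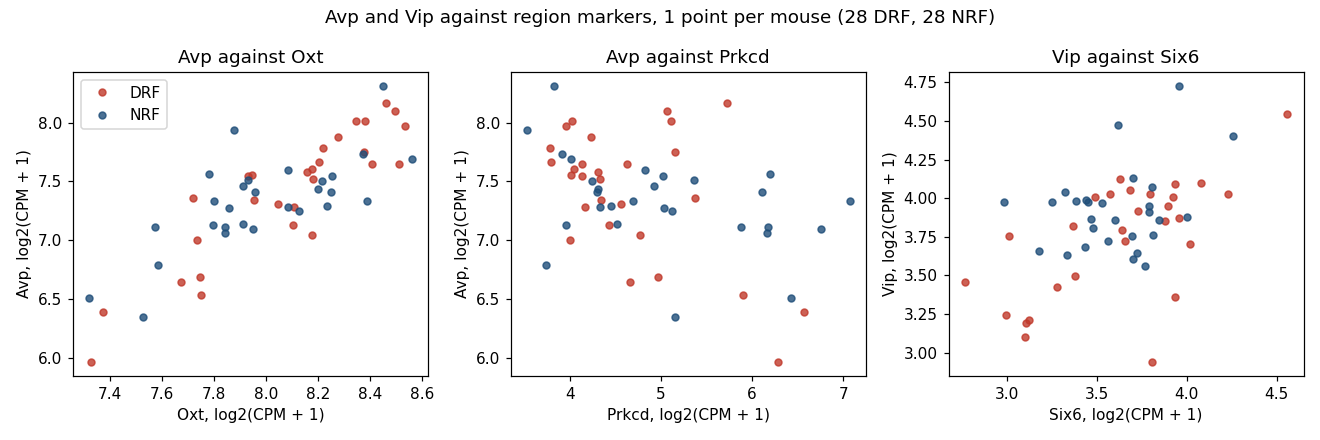
Avp against the oxytocin transcript Oxt, Avp against the thalamic marker Prkcd, and Vip against the SCN marker Six6, all on the log2(CPM + 1) scale, 1 point per mouse, red for the 28 DRF and blue for the 28 NRF mice. Avp goes up with Oxt (r = 0.82) and down with Prkcd (r = -0.44). Vip goes up with Six6 (r = 0.50), the highest r of Vip with the 8 SCN markers, of which the lowest was -0.02 with Zfhx3. After the group means were removed, r of Vip was 0.58 with Six6 and 0.35 with Zfhx3, and the lowest was 0.07 with Rgs16.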

How the data were processed

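Poly(A) RNA of 56 mice was sequenced, and the authors cleaned the reads, mapped them with HISAT2 (GRCm38.p6) and Bowtie2, counted them with RSEM, normalized them and deposited a value per gene and mouse named TPM. These deposited values are treated here as a score, since they follow log2(CPM + 1) over gene length, scaled so that each mouse sums to nearly the same total. The steps predicted for few reads fitted with a median relative deviation of 4.92e-08. Undoing them gave whole reads (within 0.05 of a whole number in at least 90% of mice) for 86.5% of genes and CPM for 16018 of the 16245 genes whose deposited value reached 1 in no fewer than 80% of mice. For 2043 genes of the table the annotated length gave no whole reads and was used all the same, so their CPM are approximate. Among these were the 4 haemoglobin transcripts, Tshb and Prok1. Normalized library sizes had a median of 30783110 reads in DRF and 30808279 in NRF. limma 3.58.1 (R 4.3.3, trended eBayes, 14 groups, all 56 mice) tested log2(CPM + 1), which understates the fold change of scarce transcripts. Adjustment was by the Benjamini-Hochberg method per contrast over all genes, with a threshold of 0.05. JTK_CYCLE and Lomb-Scargle p-values were rewritten after MetaCycle in Python 3.11.15. Both were tested on simulated data. No count model was run, since the values are no deposited counts. Groups came from the labels, which give no batch and no litter. Replicate numbers are shared between regimens, but same-numbered mice did not deviate together, so mice were not paired. The transcripts and gene lists were chosen with earlier results of these data known. All 7 transcripts are named, with the 5 genes most like each, and listed genes where they passed a test. Alternatives were the pseudocount, the filter, the scale, normalization, weights, a replicate block, each replicate, ZT16 or ZT24 left out, and, chosen after the data were seen, voom, the 2 libraries that stood apart left out, each library left out, joined ties and a test over 7 time points.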

Additional observations from a re-analysis of the deposited data

Results flagged for a closer look

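In 3 of 98 groups of 4 mice (7 transcripts in 14 groups), 1 mouse lay far from the other 3 for the range of its group by Dixon's criterion, and chance flags about 5% of groups. For Avp, NRF ZT24 replicate 1 had 176 CPM and the others 138 to 140. For Nms, NRF ZT16 replicate 4 had 2.88 CPM and the others 2.24 to 2.31. For Grp, NRF ZT0 replicate 1 had 5.55 CPM and the others 3.83 to 3.89. All 3 were high and all 3 were NRF mice. The light against dark difference of Nms in NRF, which uses the ZT16 mouse, kept its call without any 1 library (adjusted p = 0.00371 to 0.0235, limma).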

How the results depend on the processing

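The count of transcripts that passed at single time points was 1 (Vip at ZT8), and it was 0 with log2(CPM + 0.25), no filter, log2(deposited value + 1) or quantile normalization, 3 with array weights (Vip, Nms and Grp at ZT8) and 0 to 1 without 1 replicate, the 1 then being Prok2 at ZT16 without replicate 1. The light against dark count was 4 in NRF, with 6 with array weights (Vip and Avpr1a added), 3 with log2(deposited value + 1) or without ZT16 and 2 to 3 without 1 replicate, and 2 in DRF, with 0 to 2 without 1 replicate and 0 without ZT16. The comparison of this difference between regimens went from 0 to 1 (Grp) with array weights, and the rhythm difference from 0 to 1 with array weights (Grp) and to 0 to 1 without 1 replicate (Vipr2 without replicate 2). The rhythm count in NRF, 1, was 0 with Lomb-Scargle alone, 2 with joined ties, 3 with the limma cosine, 3 with this cosine and a replicate block, 2 with limma over 7 time points and 0 to 1 without 1 replicate. The rhythm count in DRF, 0, was 2 with the cosine, with or without the replicate block, and 3 (Prok2, Nms and Vipr2) with limma over 7 time points. Prok2 and Nms in NRF passed under all 13 alternatives to the light against dark test, Vipr2 under 10 of 13 in NRF and 9 of 13 in DRF, Prok2 in DRF under 11, Grp in NRF under 8, and Vip at ZT8 under 4 of 12. Without 1 replicate, Prok2 in DRF lost its call without replicate 3 (adjusted p = 0.134), Vipr2 in NRF without replicate 1, 2 or 3 (0.0527 to 0.0637) and in DRF without 1, 3 or 4 (0.0784 to 0.106), Grp in NRF without 1, 3 or 4 (0.0524 to 0.283) and Vip at ZT8 whichever replicate was left out (0.0865 to 0.408). With voom on the whole reads the light against dark difference of Prok2 was 0.63 in NRF and 0.70 in DRF. No direction of a called difference turned, and the peak times of Prok2 and Vipr2 in the fitted cosine moved by less than their SE with log2(CPM + 0.25) or without 1 replicate. The JTK_CYCLE peak moves in steps and belongs to the best period. For Vipr2 in DRF it was 20 h at a period of 24 h. It was 0 h without ZT16 and 18 h without replicate 4, both at a period of 20 h. A wave of 20 h that peaks at 0 h peaks again at 20 h, so the change without ZT16 was one of period. At a period of 28 h, the longest searched, the peak went from 18 h to 16 h for Vipr2 in NRF without replicate 2. At the same period it went from 2 h to 4 h for Prok2 in NRF without ZT24, replicate 3 or replicate 4. Over the 28 same-numbered pairs of DRF and NRF mice at a time point the deviations correlated at -0.52 to 0.33, and 3 of 28 mice went best with their own number. With the replicate block the counts of transcripts called by the day against night, time point and regimen tests were the same as without it (4, 2, 1 and 0). Over all genes, the light against dark count was 4278 in NRF (2407 to 6311 under the alternatives) and 545 in DRF (162 to 869), the ZT8 count was 23 (0 to 1665, the highest with array weights), the count over the day 1684 (386 to 2730), and the rhythm counts were 4479 in NRF and 132 in DRF, both 0 with Lomb-Scargle alone. Transcripts with about 100 reads carry a counting error near 10%, so that differences of that size could not be resolved in single mice.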

Other observations

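In DRF, Prok2 was lower in replicates 1 and 2 than in replicates 3 and 4 at ZT8 (1.90 and 2.11 against 3.35 and 3.0 CPM), at ZT12 (1.80 and 1.93 against 4.20 and 4.56 CPM), at ZT20 (1.41 and 1.56 against 2.62 and 2.72 CPM) and at ZT24 (2.02 and 2.33 against 2.70 and 2.86 CPM). It was not so at ZT0, ZT4 or ZT16, and in NRF the values at ZT12 were 2.36 and 2.40 against 2.27 and 1.99 CPM. This was noticed in the data and was not tested, and the labels give no batch for the replicate numbers.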
